A study of Mus musculus with 6 samples.

Results

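Complement genes were examined in RNA of the cerebral cortex of FAD5x mice and of wild-type C57BL/6 mice, the Control group. The set held 9 genes taken by symbol out of 47728 genes with counts: the C1q chains C1qa, C1qb and C1qc, the central components C3 and C4b, the anaphylatoxin receptors C3ar1 and C5ar1, and the complement receptor integrin subunits Itgam and Itgb2. FAD5x is a model of Alzheimer's disease whose human transgenes, carrying familial disease mutations, are driven in neurons by a Thy1 promoter cassette. Both groups are flash frozen cortex without a further treatment in the labels, and age and sex are not given there. Each group held 3 libraries, and nothing in the labels says that they came from separate animals, so the p-values measure only how far these libraries spread, and that spread may be technical. The design held 1 comparison, FAD5x against Control.

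Complement is a cascade of plasma and tissue proteins. In the classical pathway C1q, a hexamer of trimers built from A, B and C chains, binds a surface and starts a protease chain that cleaves C4 and C2 and then C3. Cleaved C4 and C3 attach to the surface through an internal thioester, and the fragments C3a and C5a signal through C3ar1 and C5ar1. Surface-bound C3 fragments are taken up through complement receptor 3, the integrin made of the Itgam and Itgb2 subunits. In brain, microglia are the main source of C1q and carry these receptors, whereas C4b is made by astrocytes and oligodendrocytes as well as microglia. C1q and C3 are known for tagging synapses for removal by microglia.

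The C1q genes lie side by side in the order C1qa, C1qc, C1qb on chromosome 4. The promoter table from RefSeq (build GRCm38.p6, which is not the GRCm39 build of the counts) held 6 of the 9 members, C1qb, C1qc, C3, C3ar1, C5ar1 and Itgam, and did not list C1qa, C4b and Itgb2. The 250 bases upstream of the start were searched on both strands for GAGGAA, the core bound by ETS factors such as PU.1 of myeloid cells. It was found in the 3 windows shown here, where capitals mark it in either orientation and the C1qc window is shown only as far as its 99 bases outside annotated exons. For comparison, 23.3% of 32851 promoter windows of the same length held it.
C1qb, chr4:136886201-136886450, minus strand: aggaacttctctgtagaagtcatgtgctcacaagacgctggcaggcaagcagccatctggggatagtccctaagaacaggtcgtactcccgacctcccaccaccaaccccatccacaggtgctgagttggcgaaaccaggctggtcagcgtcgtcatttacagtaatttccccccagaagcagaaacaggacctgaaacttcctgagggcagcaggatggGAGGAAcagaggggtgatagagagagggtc
C1qc, chr4:136893066-136893164, minus strand: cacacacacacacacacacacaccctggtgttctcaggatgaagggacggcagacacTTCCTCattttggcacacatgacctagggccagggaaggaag
Itgam, chr7:128062390-128062639, plus strand: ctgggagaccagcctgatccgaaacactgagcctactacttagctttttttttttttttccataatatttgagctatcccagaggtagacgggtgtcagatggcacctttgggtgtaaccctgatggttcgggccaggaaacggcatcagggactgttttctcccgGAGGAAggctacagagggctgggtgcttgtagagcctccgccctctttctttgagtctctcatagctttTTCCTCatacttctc
The core stood 30 to 25 bases upstream of the start in C1qb and 193 to 188 bases upstream in C1qc. Itgam held it at 84 to 79 and at 15 to 10 bases upstream. Of 2 other motifs, TTNCNNAA, the C/EBP type, was in 4 of the 6 windows, with 3 positions in C3, against 36.8% of all windows, and TTCNNNGAA, the STAT type, was in 0 of 6 against 7.02%. No match of one motif overlapped a match of another in the printed windows. These matches describe the letters only.

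The thioester that ties C3 and C4 to a target is shown because C3 and C4b are the 2 members that act through it. The coding stretches come from the longest GENCODE M21 transcript of each gene, and capitals mark the 15 bases that encode the thioester site.
C3, transcript bases 3096 to 3170: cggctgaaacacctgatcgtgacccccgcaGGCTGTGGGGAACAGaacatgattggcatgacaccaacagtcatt
C4b, transcript bases 3039 to 3113: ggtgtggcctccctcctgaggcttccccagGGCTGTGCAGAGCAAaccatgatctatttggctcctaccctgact
These stretches differed at 36 of 75 positions. C4b has a much closer relative in C4a, a neighbouring copy, with which it shared 16.5% of its stretches of 100 bases and 35.2% of its stretches of 50 bases letter for letter. The C1q transcripts shared 0 such stretches of 50 bases with each other.

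Total counts were 17363946 to 24137936 per library. Cortex markers, such as Slc17a7, the vesicular glutamate transporter of excitatory neurons, were present in every library, with a summed level of 1418 to 2315 CPM (CPM, counts scaled to a common library size by the trimmed mean of M values). Control replicate 1 alone had Y-linked counts (3124, against at most 9) and had 3 Xist counts, against 10346 or more in the others. FAD5x replicates 1 and 2 have related library names, and they were kept as separate samples, as the labels list them. Their counts were as far apart (chi-square over its degrees of freedom 63.8) as those of the other FAD5x pairs (41.9 and 60.0). This distance cannot show whether they came from separate animals. In bulk tissue fewer cells of a type and less RNA per cell cannot be told apart.

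All 9 members passed the filter on low counts, and in all 9 every FAD5x library lay above every Control library, against 14.1% of the 17074 genes tested (27.4% without overlap in either direction). With library totals alone in place of the scaling this held for 8 members, since Itgam then overlapped. C1qa and Itgb2 rose, 2 of 9 members with an adjusted p below 0.05, against 1.76% of all tested genes called higher and 1.39% called lower. Over the members the log2 fold changes had a median of 1.67, against 0.02 over all tested genes. An unadjusted p below 0.05 was reached by 9 of 9 members, against 11.2% of all tested genes that reached it in this direction. Folds ranged from 1.52 for Itgam to 12.8 for C4b, so the largest differences were not those that passed the test.

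**Figure D1:**
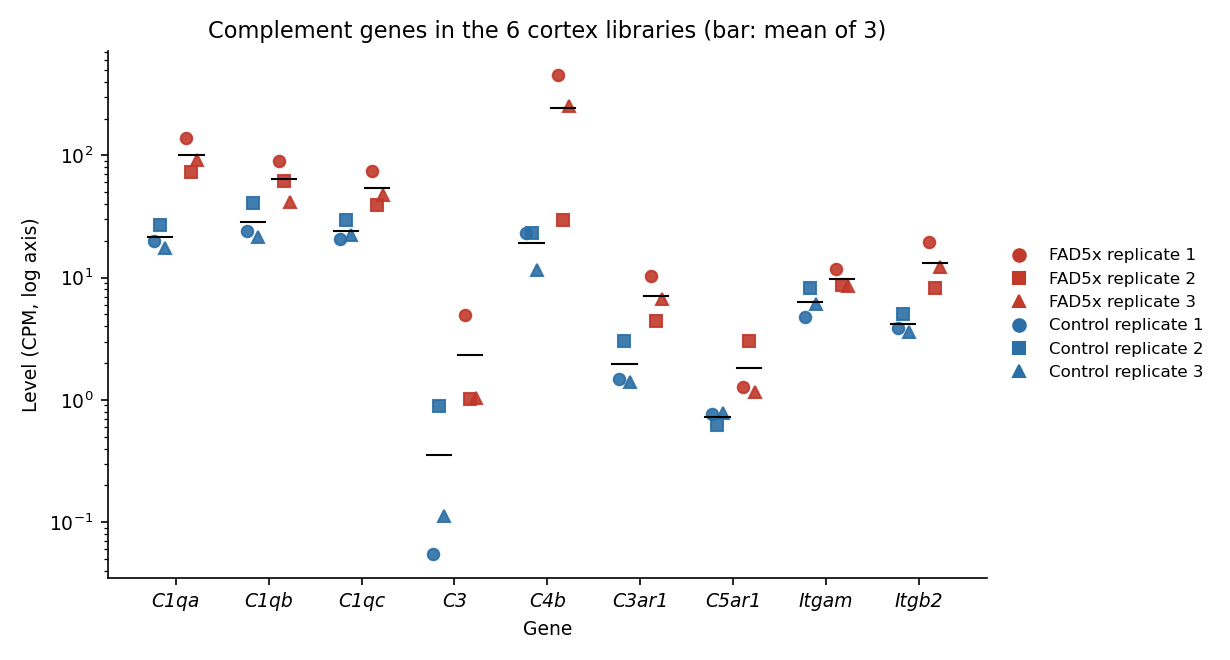
Level of each of the 9 complement genes in the 6 libraries, in CPM on a log axis, with a bar at the mean of the 3 libraries of a group. Every FAD5x library is above every Control library for each gene, by the narrowest margin for Itgam (8.46 against 8.26 CPM) and C1qb (41.8 against 40.7 CPM), and C4b has the widest spread within FAD5x.

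C1qa (ENSMUSG00000036887), the A chain of C1q, had 139, 73.3 and 91.3 CPM in the FAD5x libraries (replicates 1, 2 and 3) against 20.1, 26.7 and 17.5 CPM in the Control libraries (in the same order). The lowest FAD5x library was 2.74 times the highest Control library, the widest gap among the 9 members. C1qa rose 4.72-fold (log2 2.24 ± 0.26, standard error, 3 libraries a group; adjusted p = 0.00726 by the edgeR quasi-likelihood test, as for all adjusted p-values not credited to another tool). The call held without any single library, with an adjusted p from 0.00120 without FAD5x replicate 2 to 0.0488 without Control replicate 1. It ended narrowly with sex as a covariate (log2 2.20, adjusted p = 0.0510). This covariate marks only Control replicate 1, so its fit is nearly the one without that library (log2 2.20, adjusted p = 0.0488). It is thus not a separate check, and an effect of sex was not tested.

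C1qb (ENSMUSG00000036905), the B chain, had 90.0, 61.5 and 41.8 CPM across FAD5x, against 24.1, 40.7 and 21.4 CPM across Control. FAD5x replicate 3 and Control replicate 2 were nearly level, and the log2 fold change of 1.17 ± 0.33 did not pass the test (adjusted p = 0.106). Without FAD5x replicate 3 it passed (log2 1.40, adjusted p = 0.0391), whereas without FAD5x replicate 1 the log2 fold change was 0.85 (0.196), and with any other library left out the adjusted p was 0.106 to 0.319. On all libraries C1qb was called by DESeq2 (adjusted p = 0.00668) but not by limma-voom (0.0941).

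C1qc (ENSMUSG00000036896), the C chain, had 74.5, 39.3 and 47.2 CPM across FAD5x, against 20.8, 29.5 and 22.5 CPM across Control. The groups were apart, and the log2 fold change of 1.15 ± 0.25 lay just short of the threshold (adjusted p = 0.0524). It passed without FAD5x replicate 2 (adjusted p = 0.0131) or FAD5x replicate 3 (0.0496), and with any other library left out the adjusted p was 0.0796 to 0.198. On all libraries it passed by DESeq2 (0.000794) and with no filter on low counts (0.0191), but not by limma-voom (0.0586).

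The chain transcripts stood in other proportions in each group. The C1qc level was 0.536, 0.536 and 0.517 of the C1qa level across FAD5x replicates 1, 2 and 3, against 1.04, 1.11 and 1.28 of it in Control. C1qb was 0.647, 0.839 and 0.458 of C1qa in FAD5x and 1.20, 1.52 and 1.22 of it in Control. In both ratios the FAD5x libraries were all below 1 and the Control libraries all above it. The ratio of C1qc to C1qb overlapped between the groups, with 0.828, 0.639 and 1.13 in FAD5x and 0.863, 0.725 and 1.05 in Control. The ratio of C1qa to the sum of C1qb and C1qc, in percent, was 84.6%, 72.7% and 103% in FAD5x and 44.7%, 38.0% and 39.9% in Control. This ratio was chosen after the values were seen. It was 2.10 times as high in FAD5x (log2 difference 1.07, n = 3 per group; two-sided exact permutation test, p = 0.1, the smallest that 3 against 3 libraries can give), and the log2 difference was 0.94 to 1.19 with single libraries left out.

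C4b (ENSMUSG00000073418, chromosome 17), the component of the classical pathway that C1 cleaves first, had 456, 29.5 and 251 CPM across FAD5x, against 23.0, 23.0 and 11.6 CPM across Control. FAD5x replicates 1 and 3 stood far above all other libraries, and FAD5x replicate 2 was 1.28 times the highest Control library. The fold change of 12.8 (log2 3.68 ± 0.99) did not pass the test (adjusted p = 0.120). DESeq2 called C4b (adjusted p = 0.00471), while limma-voom did not (0.118). Without FAD5x replicate 2 the log2 fold change was 4.21 and passed (adjusted p = 0.00558), whereas without FAD5x replicate 1 it was 2.87 (0.165), and without FAD5x replicate 3 or a single Control library the adjusted p was 0.0643 to 0.336.

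Since C4b and C4a share sequence, how reads were split between them is uncertain. C4a, named for this shared sequence and after its values were seen, had 13.1, 2.47 and 8.31 CPM across FAD5x, against 3.58, 3.37 and 3.19 CPM across Control, so FAD5x replicate 2 lay below the Control libraries for C4a. Of the sum of the pair, C4a made up 2.80% and 3.20% in FAD5x replicates 1 and 3 but 7.73% in FAD5x replicate 2, against 12.8% to 21.5% in Control. The sum followed C4b, with 470, 32.0 and 260 CPM across FAD5x, against 26.5, 26.4 and 14.8 CPM across Control.

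C3 (ENSMUSG00000024164, chromosome 17), the component on which all activation routes meet, was the lowest member per length of exon, with 121, 21 and 20 counts in FAD5x and 1, 16 and 2 counts in Control. These were 4.99, 1.02 and 1.04 CPM across FAD5x, against 0.0551, 0.899 and 0.112 CPM across Control. FAD5x replicate 1 was high, whereas FAD5x replicates 2 and 3 were close to Control replicate 2. The log2 fold change of 2.72 ± 1.01 did not pass the test (adjusted p = 0.179), and it ranged from 1.52 without FAD5x replicate 1 to 4.73 without Control replicate 2. DESeq2 called C3 just under the threshold (adjusted p = 0.0471), while limma-voom did not (0.166).

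C3ar1 (ENSMUSG00000040552, chromosome 6), the receptor for C3a, had 10.2, 4.46 and 6.69 CPM across FAD5x, against 1.49, 3.03 and 1.40 CPM across Control. All FAD5x libraries were above Control replicate 2, the highest Control library, by at least 1.47 times. The log2 fold change of 1.85 ± 0.42 (3.61-fold) lay just short of the threshold (adjusted p = 0.0534) and passed without FAD5x replicate 2 (log2 2.11, adjusted p = 0.0155). With any other library left out the adjusted p was 0.0683 to 0.205. On all libraries C3ar1 passed by DESeq2 (0.000704) and with no filter on low counts (0.00296), but not by limma-voom (0.0703).

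C5ar1 (ENSMUSG00000049130, chromosome 7), the receptor for C5a, had 1.28, 3.004 and 1.15 CPM across FAD5x, against 0.771, 0.618 and 0.783 CPM across Control. It was the only member highest in FAD5x replicate 2, and it rested on 22 to 62 counts per FAD5x library and 11 to 14 per Control library. The log2 fold change of 1.31 ± 0.48 did not pass the test (adjusted p = 0.168), and without FAD5x replicate 2 it was 0.75 (adjusted p = 0.358). Hc, the gene for C5, which gives its ligand, was also singled out afterwards. It had 1 to 4 counts per library and was not tested.

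Some markers of blood monocytes and neutrophils were also highest in FAD5x replicate 2. The summed level of these 8 markers was 0.948, 12.3 and 5.22 CPM across FAD5x, against 2.31, 2.87 and 1.62 CPM across Control, with 0 of 2 tested members called (by edgeR, while 1 higher had an unadjusted p under 0.05, DESeq2 called 1 higher and limma-voom 0). S100a8, a calgranulin of neutrophils, had 0.247, 4.36 and 1.78 CPM in FAD5x, and S100a9, its partner, 0.124, 4.80 and 1.93 CPM. Ly6g, a neutrophil surface protein named after its values were seen, had 5 counts in FAD5x replicate 2 and 0 in the other libraries. Other markers of the list did not follow this order. Ccr2, a chemokine receptor of monocytes, had 4, 6 and 5 counts in FAD5x and 8, 21 and 14 counts in Control, Ly6c2 was highest in Control replicate 1, at 17 counts, and Camp in FAD5x replicate 3, at 14 counts. The part of these cells in the C5ar1 values was not tested.

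Itgb2 (ENSMUSG00000000290, chromosome 10), the beta subunit shared by complement receptors 3 and 4, had 19.4, 8.24 and 12.2 CPM across FAD5x, against 3.91, 5.06 and 3.58 CPM across Control. Every FAD5x library was at least 1.63 times the highest Control library. Itgb2 rose 3.18-fold (log2 1.67 ± 0.32, adjusted p = 0.0340). The call ended without FAD5x replicate 1 (adjusted p = 0.0744) or Control replicate 1, 2 or 3 (0.151, 0.103 and 0.115). It also ended by limma-voom (0.0673) and with sex as a covariate (0.155), which is nearly the fit without Control replicate 1. The call held by DESeq2 (9.36e-05) and with no filter on low counts (0.000820).

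Itgam (ENSMUSG00000030786, chromosome 7), the alpha subunit of complement receptor 3, had the smallest fold of the set, with 11.7, 8.77 and 8.46 CPM across FAD5x, against 4.73, 8.26 and 6.09 CPM across Control. The groups nearly met at FAD5x replicate 3 and Control replicate 2, and the log2 fold change of 0.60 ± 0.25 did not pass the test (adjusted p = 0.219). In the GENCODE M21 annotation Itgam shares 3450 of its 5024 exon bases with Gm49368 on the same strand, a gene with 0 counts in all 6 libraries. How reads in these shared bases were assigned is not stated, so the level of Itgam is uncertain.

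The other alpha partners of Itgb2 were looked at beside it, and the C1 proteases further on likewise, after their values were seen. Itgax, the alpha subunit of complement receptor 4 and a marker of activated microglia, had 660, 2 and 270 counts in FAD5x and 2, 3 and 4 counts in Control. It was not tested, because the filter asks for a minimum count in 3 libraries. FAD5x replicates 1 and 3 stood far above all other libraries, and FAD5x replicate 2 was at the Control level. Itgal, the alpha subunit of the leukocyte integrin LFA-1, had 1.65, 0.678 and 0.836 CPM across FAD5x, against 0.551, 0.449 and 0.503 CPM across Control, and Itgad had 0 to 7 counts per library.

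**Figure D2:**
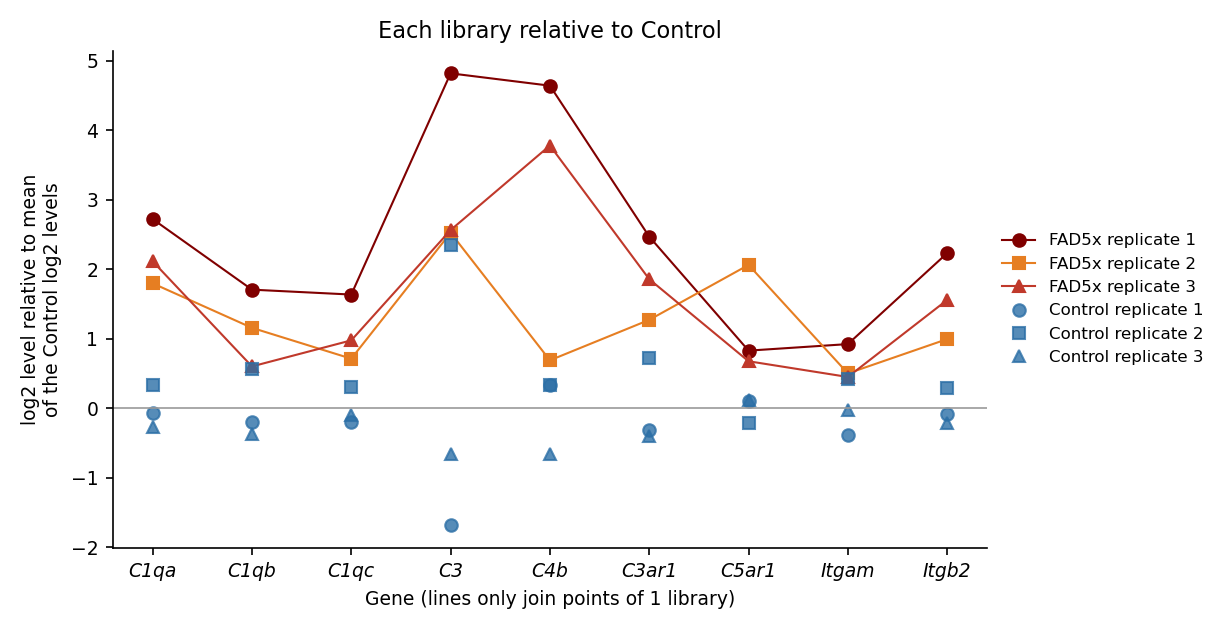
The log2 level of each gene in each library relative to the mean of the 3 Control log2 levels. FAD5x replicate 1 is highest for 8 of the 9 genes, and FAD5x replicate 2 falls to 0.69 for C4b, where FAD5x replicates 1 and 3 reach 4.64 and 3.78.

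The FAD5x libraries were ordered in much the same way across the set. FAD5x replicate 1 was highest for 8 of 9 members, all but C5ar1. FAD5x replicate 2 was lowest for 6 members, and FAD5x replicate 3 for C1qb, C5ar1 and Itgam. The median of the 9 log2 levels relative to Control was 2.23, 1.16 and 1.56 across FAD5x replicates 1, 2 and 3, against -0.19, 0.34 and -0.27 in Control replicates 1, 2 and 3. Control replicate 2 was the highest Control library for 8 of 9 members. The gap between FAD5x replicate 2 and Control replicate 2 was thus narrow for several members, among them C3 and C4b.

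Levels were also compared between genes as CPM per kilobase of annotated exon. In Control the order was C1qb (26.4), C1qa (20.6), C1qc (12.6), C4b (3.37), Itgb2 (1.37), Itgam (1.27), C3ar1 (0.458), C5ar1 (0.282) and C3 (0.0691), all in CPM per kilobase. The ranges of C1qb and C1qa overlapped, as did those of Itgb2 and Itgam, whereas those of the other neighbours did not. In FAD5x the order was C1qa (97.3), C1qb (59.2), C4b (43.2), C1qc (27.8), Itgb2 (4.35), Itgam (1.92), C3ar1 (1.65), C5ar1 (0.704) and C3 (0.457), where C1qc and Itgb2, and Itgb2 and Itgam, were the neighbours without overlap. C4b thus spanned 5.18 to 80.1 CPM per kilobase in FAD5x, from below to above the range of C1qc, 20.3 to 38.6. The place of Itgam in both orders is uncertain, since most of its exon bases are shared with Gm49368.

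The members were then set against markers of the cells that express them. The 13 markers of homeostatic microglia, such as Csf1r, the receptor for colony-stimulating factor 1, had a summed level of 835, 386 and 597 CPM across FAD5x, against 404, 537 and 354 CPM across Control. These sums overlapped, and 0 of 13 markers were called (by edgeR, while 6 higher and 1 lower had an unadjusted p under 0.05, DESeq2 called 3 higher and 1 lower and limma-voom 0). Their median log2 fold change was 0.66. Csf1r had 201, 100.3 and 134 CPM across FAD5x, against 86.2, 123 and 84.6 CPM across Control.

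The summed C1q level was 36.3%, 45.1% and 30.2% of the microglia marker sum in FAD5x and 16.1%, 18.0% and 17.3% in Control. It was thus 2.14 times as high relative to these markers, and FAD5x replicate 2, low in most members, had the highest ratio (log2 difference 1.10; two-sided exact permutation test, p = 0.1, also when adjusted over the 3 ratios, n = 3 per group). The sum of C3ar1, C5ar1, Itgam and Itgb2 was 5.11%, 6.34% and 4.77% of the marker sum in FAD5x and 2.699%, 3.16% and 3.34% in Control. That ratio was 1.76 times as high (log2 difference 0.81; exact permutation test, p = 0.1). For both ratios the FAD5x libraries were all above the Control libraries, and 3 against 3 libraries cannot give a p below 0.1. Both are ratios of sums and need not hold for each member, and single members were not set against the marker sum. The log2 fold change was 2.24 for C1qa but 1.17 for C1qb and 1.15 for C1qc. Among the receptor genes it was 1.85 for C3ar1, 1.31 for C5ar1, 1.67 for Itgb2 and 0.60 for Itgam. The median over the markers was 0.66.

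**Figure D3:**
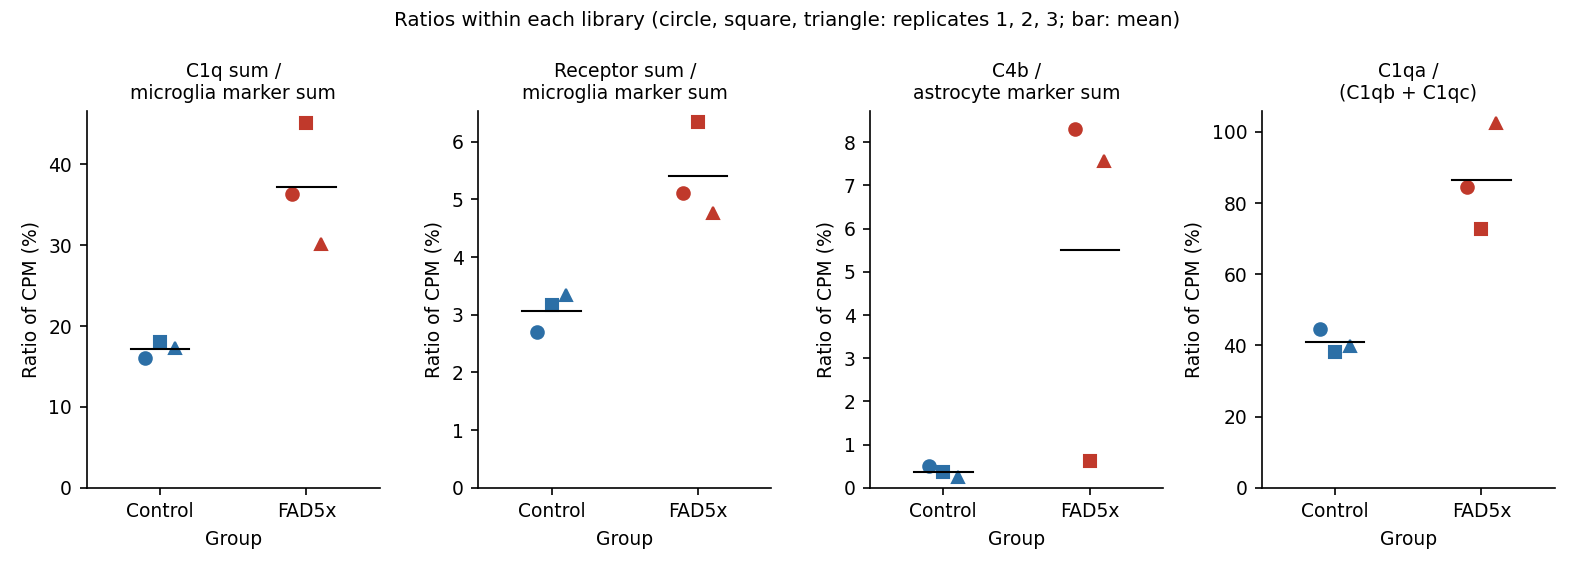
Ratios of summed levels within each library, in percent, with a bar at the mean of each group. The ratios of the C1q and receptor sums to the microglia marker sum are highest in FAD5x replicate 2, while the ratio of C4b to the astrocyte marker sum is 0.620% there, against 8.31% and 7.57% in FAD5x replicates 1 and 3.

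C4b was set against 8 astrocyte markers, such as the glutamate transporter Slc1a2 and the aldolase Aldoc, whose sum was 5493, 4757 and 3319 CPM across FAD5x, against 4443, 6438 and 4813 CPM across Control. None of the 8 was called (by edgeR, while 0 had an unadjusted p under 0.05, DESeq2 called 0 and limma-voom 0). C4b was 8.31%, 0.620% and 7.57% of that sum in FAD5x and 0.517%, 0.357% and 0.242% in Control (log2 difference 3.26; exact permutation test, p = 0.1). The log2 difference was 4.48 without FAD5x replicate 2 and 2.61 without FAD5x replicate 1. Of 8 oligodendrocyte markers 1, Mobp, a myelin protein gene, rose (log2 1.09 ± 0.24, adjusted p = 0.0474), and their sum was 7609, 3899 and 5100 CPM across FAD5x, against 2809, 3254 and 4142 CPM across Control, so that FAD5x replicate 2 was again the lowest FAD5x library. The part of oligodendrocytes in the C4b values was not tested.

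Markers of border macrophages and meningeal fibroblasts were looked at as other possible sources. The 8 border macrophage markers summed to 4.12 to 13.7 CPM across FAD5x, against 8.22 to 21.7 CPM across Control, with 0 of 6 tested called (by edgeR, while 3 lower had an unadjusted p under 0.05, DESeq2 called 3 lower and limma-voom 0). Mrc1, the mannose receptor of these cells, had 2.14, 1.26 and 1.83 CPM across FAD5x, against 6.72, 7.19 and 1.96 CPM across Control. Cd163, their haemoglobin scavenger receptor, was level, with 6.72, 1.26 and 2.40 CPM across FAD5x, against 3.91, 4.10 and 2.18 CPM across Control (log2 0.04 ± 0.58). The 6 meningeal fibroblast markers, cells that also make C3, summed to 10.9 to 48.0 CPM across FAD5x, against 93.4 to 312 CPM across Control, and Col3a1, a fibrillar collagen, fell by 3.37 on the log2 scale (adjusted p = 0.00178). The highest Control sums of both lists, 21.7 and 312 CPM, were in Control replicate 2, the Control library with the highest C3. The part of these cells in the C3 values was not tested.

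The rest of the pathway was described from 72 other complement genes in 5 lists, of which 48 passed the filter. Of these 48, 1 rose and 1 fell, or 4.17% against 3.15% of all tested genes called in either direction, and their median log2 fold change was 0.06. At an unadjusted p under 0.05, 10 of the 48 were higher and 3 lower, against 11.2% of all tested genes that were higher. The share of all tested genes lower at this cutoff is not given here.

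Among classical and lectin pathway proteins 11 of 18 were tested and 1 was called (by edgeR, while 2 higher and 1 lower had an unadjusted p under 0.05, DESeq2 called 1 higher and 1 lower and limma-voom 1 higher). Masp2, the protease of the lectin pathway that cleaves C4 and C2, had 2.02, 2.18 and 3.34 CPM across FAD5x, against 0.716, 0.449 and 0.503 CPM across Control, and rose 4.47-fold (log2 2.16 ± 0.40, adjusted p = 0.0292). Masp2 shares 1817 exon bases with Tardbp on the opposite strand, and the counting is not stated to use strand. Reads in these shared bases can thus not be told apart from those of Tardbp. Tardbp had a mean of 147 CPM in FAD5x and 156 CPM in Control, and its part in the Masp2 values was not tested. The call ended when FAD5x replicate 1, FAD5x replicate 3 or a single Control library was left out. Masp1, of the same list and named after its values were seen, went the other way. It had 5.69, 6.30 and 7.47 CPM across FAD5x, against 9.85, 12.7 and 10.8 CPM across Control. Its log2 fold change of -0.78 ± 0.20 did not pass the test (adjusted p = 0.0726). The C1 proteases C1ra and C1s1 had log2 fold changes of 1.08 ± 0.69 and 1.59 ± 0.72 (adjusted p = 0.420 and 0.253), and both were highest in FAD5x replicate 2, at 7.56 and 4.65 CPM.

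Alternative and terminal pathway genes were scarce. Of 12 listed 3 were tested, and 0 were called (by edgeR, while 0 had an unadjusted p under 0.05, DESeq2 called 0 and limma-voom 0). Cfp, properdin, which stabilises the C3 convertase, had 9.15, 12.06 and 12.02 CPM across FAD5x, against 12.5, 11.97 and 9.95 CPM across Control, and C8g, a subunit of the membrane attack complex, 1.85 to 2.47 CPM and 2.18 to 2.92 CPM. Cfd, factor D, and C9 of the terminal pathway, named like factor B after their values were seen, had 0 counts in all libraries, which allows up to 3 counts, or 0.124 to 0.169 CPM depending on the library. Cfb, factor B, had 1 to 5 counts per library.

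Among 17 tested complement regulators of 20 listed, 0 were called (by edgeR, while 4 higher and 1 lower had an unadjusted p under 0.05, DESeq2 called 1 higher and 1 lower and limma-voom 0). Clu, clusterin, a secreted inhibitor of the terminal complex, had 1120, 771 and 717 CPM across FAD5x, against 438, 737 and 533 CPM across Control (log2 0.61 ± 0.25, adjusted p = 0.204). Sez6l2, a neuronal membrane protein, differed by 0.61 ± 0.19 on the log2 scale, short of the threshold (adjusted p = 0.118).

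Among 11 tested of 14 other receptors and partners 1 was called by edgeR. At an unadjusted p under 0.05, 3 were higher and 1 lower. DESeq2 called 2 higher and 1 lower, and limma-voom called 1 lower. Cd93, an endothelial and myeloid lectin once described as a C1q receptor, had 4.70, 7.80 and 6.32 CPM across FAD5x, against 20.5, 14.7 and 14.9 CPM across Control, and fell by 1.41 on the log2 scale (± 0.24, adjusted p = 0.0211). Its call ended when FAD5x replicate 1 or a single Control library was left out. The endothelial markers, such as Flt1, a receptor for vascular growth factors, summed to 168 to 241 CPM across FAD5x, against 190.5 to 259 CPM across Control. Of these 6 markers 0 were called (by edgeR, while 2 lower had an unadjusted p under 0.05, DESeq2 called 0 and limma-voom 0). Their median log2 fold change was -0.23, and the part of endothelial cells in the Cd93 values was not tested. Tyrobp and Fcer1g, signalling adaptors of myeloid receptors singled out after their values were seen, had log2 fold changes of 2.13 ± 0.48 and 1.46 ± 0.38 that did not pass (adjusted p = 0.0609 and 0.0828). By edgeR both passed without FAD5x replicate 2 (adjusted p = 0.000435 and 0.0245) and with no other library left out. With all libraries kept, DESeq2 called both.

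**Figure D4:**
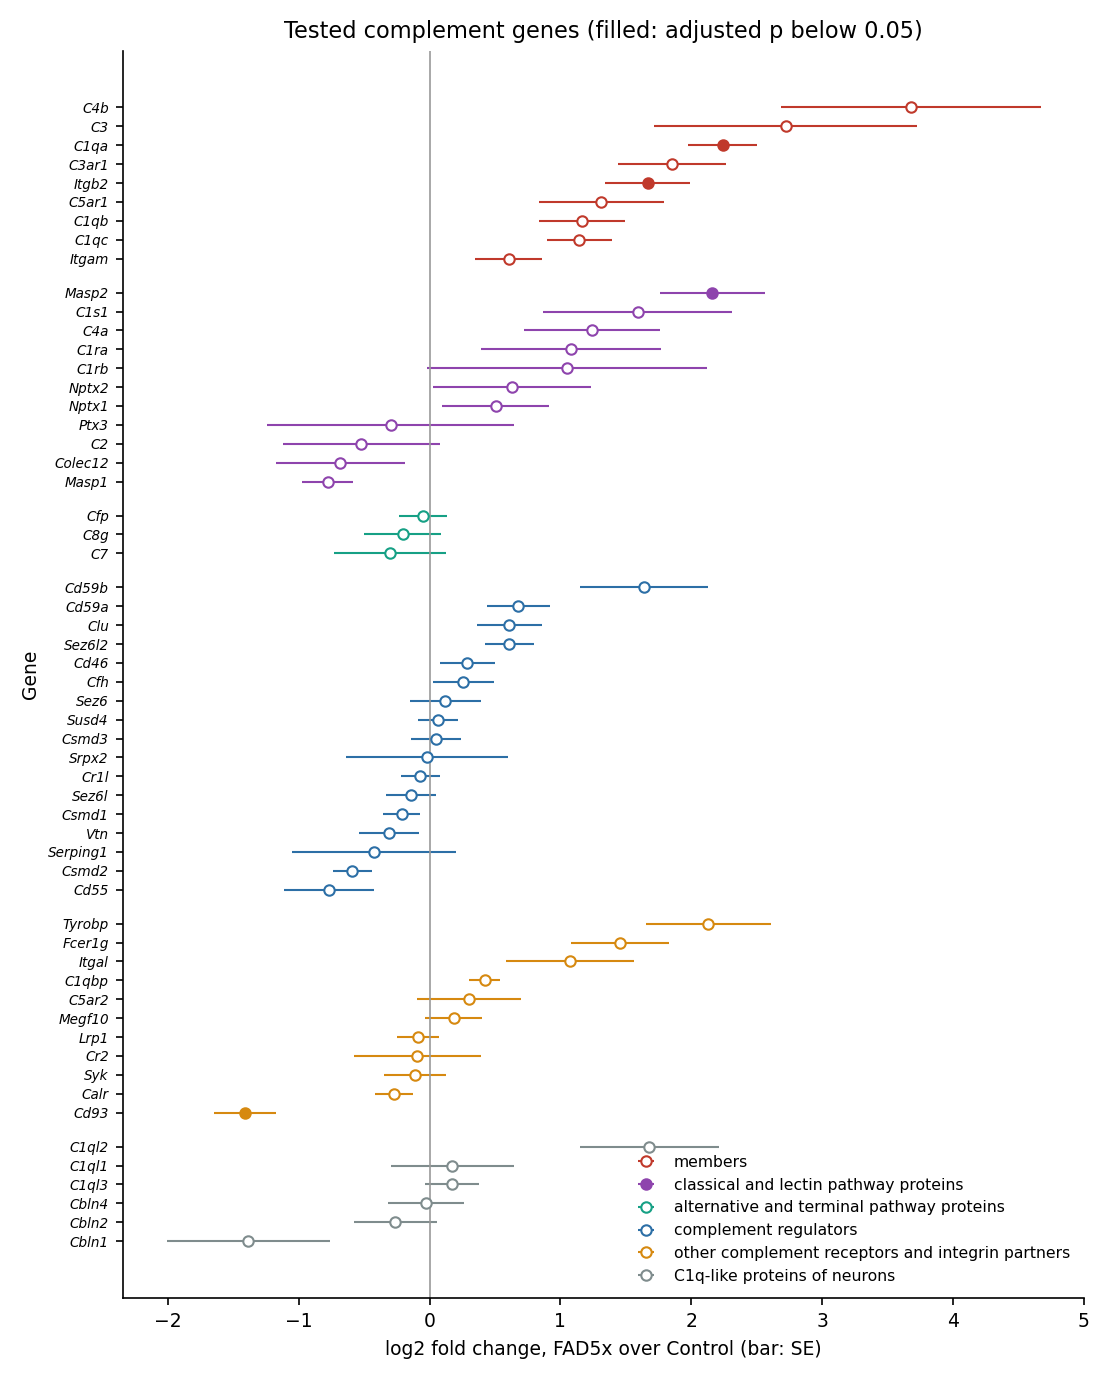
Log2 fold change of FAD5x over Control with its SE for the 9 members and the 48 other complement genes tested, grouped by list, with filled points for an adjusted p below 0.05. The members, from 0.60 for Itgam to 3.68 for C4b, are all above 0. The other 48 genes together lie on both sides of 0 (median 0.06), with only Masp2 and Cd93 filled. By list, 7 of 11 classical and lectin genes are above 0, and 0 of 3 alternative and terminal genes are.

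Genes with the most similar course over the 6 libraries were sought among 13714 genes with a mean of at least 1 CPM, by the root-mean-square difference from the mean C1q course in log2 units, each relative to Control. The nearest were Irak3, an inhibitor of Toll-like receptor signalling (0.15), Adamtsl4 (0.15), Acy1, an aminoacylase (0.19), Ly86, a partner of the receptor Cd180 (0.21), Ass1, an enzyme of arginine synthesis (0.23), Evi2a (0.23), Cd274, the checkpoint ligand PD-L1 (0.23), and Icosl, the ligand of Icos (0.23). The median over the candidates was 1.12. Among the members Itgb2 (0.19) and C3ar1 (0.32) were close to the C1q course, Itgam (0.64) and C5ar1 (0.71) were farther from it, and C3 (1.09) and C4b (1.53) were farthest.

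The course nearest to C4b belonged to Ccl6, a chemokine of myeloid cells, with 12.3, 1.21 and 9.14 CPM across FAD5x, against 1.10, 0.955 and 0.391 CPM across Control (0.36 log2 units). It was followed by Cd74, the invariant chain of MHC class II (0.54), Lyz2, a lysozyme (0.64), Slamf9 (0.76) and Cybb, a subunit of the phagocyte oxidase (0.79), against a median of 2.49. Like C4b, Ccl6 was near the Control level in FAD5x replicate 2 and high in FAD5x replicates 1 and 3.

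**Figure D5:**
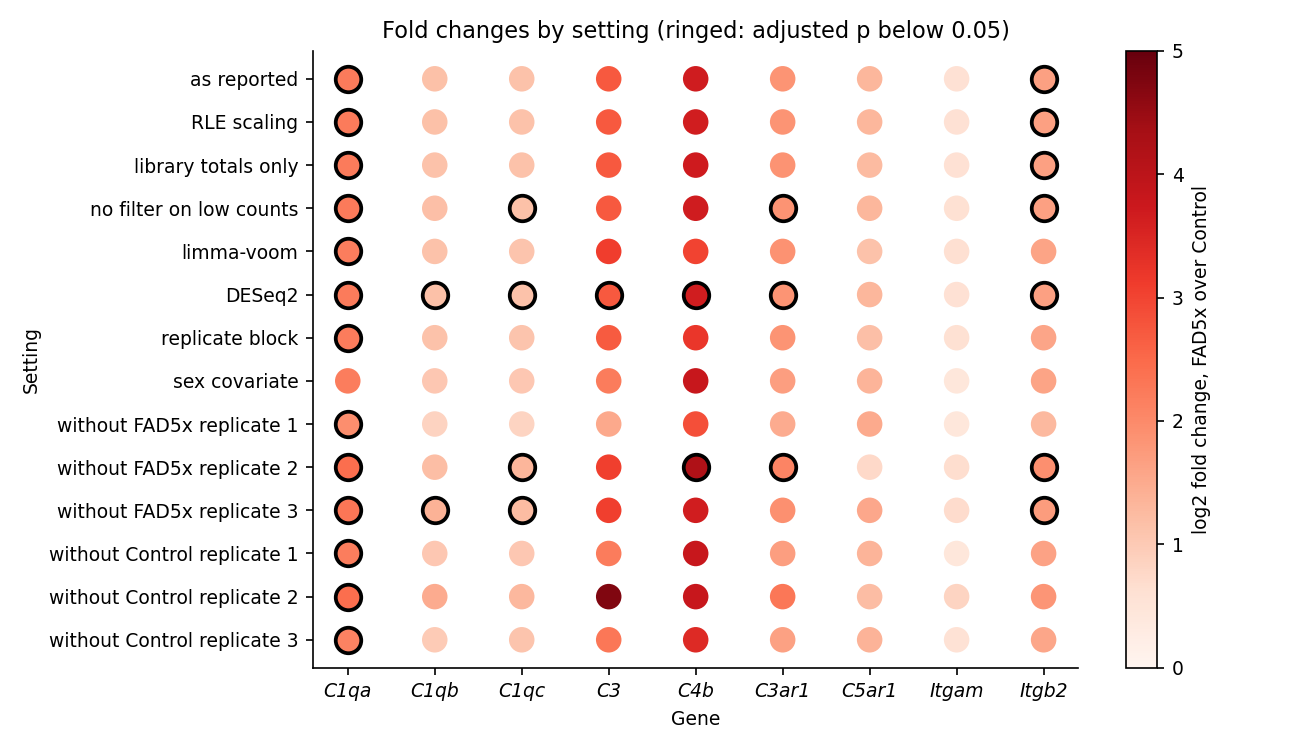
Log2 fold change of each member, as colour, under each processing setting and with each library left out, with a ring where the adjusted p is below 0.05. C1qa is ringed in all settings but the sex covariate, whereas C5ar1 and Itgam are ringed in none.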

How the data were processed

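RNA of cortex from 3 FAD5x and 3 Control samples was sequenced, 1 library each, with groups taken from the treatment label. The authors deposited raw counts per gene by Ensembl identifier. They name, per the submitters' processing notes, build GRCm39, the trimmer cutadapt, the aligner STAR (2.7.11b), the counter featureCounts, and limma and edgeR (3.38.4). Parameters, strandedness and the handling of multi-mapped reads are not given in the sources used here. One line with a cell that was not a number was left out, which left 47728 genes. Symbols and exon lengths came from GENCODE M21.

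Genes were tested with edgeR 4.0.16 (R 4.3.3): filterByExpr, trimmed mean of M values, a robust quasi-likelihood test of genotype, two-sided, Benjamini-Hochberg adjustment over 17074 genes, threshold 0.05. CPM values used the same scaling. Ratios within libraries were compared by exact permutation tests. Profiles used a pseudocount of 0.1 CPM. The biological coefficient of variation was 23.3%. On simulated counts for 17074 genes, 53% of 100 genes changed 2-fold and 90.0% of 100 changed 4-fold were called.

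The 9 members, the lists and the motifs were chosen with earlier results of these data known. The rule for named genes took the members, up to 4 called genes per list or else the 2 highest, and the nearest profiles, and exceptions are marked. A few genes that the rule or the lists take are not reported here. Some lists that checked other cells (neurons, choroid plexus, red blood cells) are given only as summed levels. Alternatives were limma-voom 3.58.1, DESeq2 1.42.0, scaling, filter, replicate block, a sex covariate and each library left out.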

Additional observations from a re-analysis of the deposited data

How the results depend on the processing

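No direction of a member or ratio turned under any alternative run. The number of members called, 2 as reported and with other scalings, was 4 with no filter on low counts, 7 by DESeq2, 1 by limma-voom, 1 with the replicate block and 0 with the sex covariate (by edgeR, 6 at an unadjusted p under 0.05), and 1 to 5 with single libraries left out. DESeq2 called all members but C5ar1 and Itgam, and limma-voom called C1qa alone. Calls over all tested genes moved too, from 3.15% as reported to 3.51% with no filter, 8.70% by DESeq2, 2.76% by limma-voom, 0.422% with the block, 0.551% with the sex covariate and 0.459% to 5.59% with single libraries left out. Leaving out FAD5x replicate 2 gave 5 calls, FAD5x replicate 3 gave 4, and FAD5x replicate 1 or a single Control library gave 1. The sex covariate marks only Control replicate 1, so that fit is close to the one without this library. The number of other complement genes called, 2 of 48 as reported, was 5 of 67 tested with no filter, 7 by DESeq2, 0 with the replicate block (by edgeR, 13 at an unadjusted p under 0.05), 0 with the sex covariate (11), and 0 to 7 with single libraries left out, the 7 coming from leaving out FAD5x replicate 2 and the 0 from leaving out FAD5x replicate 1 or a single Control library. The cause was not tested. The call of Itgb2 ended with the replicate block (adjusted p = 0.128). Replicate numbers did not pair the samples (correlations of deviations -0.04, -0.09 and -0.31), and the block left the ratios' differences as they were (p = 0.25, the smallest that 3 pairs can give). C3 and C5ar1 rest on few counts, so their folds are imprecise.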

Other observations

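C1q-like proteins, secreted neuronal relatives of C1q that organise synapses and share its globular domain, were looked at beside it. Of 8 listed 6 were tested and 0 were called (by edgeR, while 1 higher gene had an unadjusted p under 0.05, DESeq2 called 0 and limma-voom 0), and their median log2 fold change was 0.07. Cbln2, a cerebellin, had 26.8, 66.7 and 32.9 CPM across FAD5x, against 47.6, 47.8 and 56.0 CPM across Control, and C1ql3 35.9, 52.3 and 36.7 CPM across FAD5x, against 28.0, 41.6 and 41.4 CPM across Control. For both genes FAD5x replicate 2 was the highest library and the groups overlapped.

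Neuron markers summed to 5702 to 10005 CPM across FAD5x and 6139 to 7486 CPM across Control, red blood cell markers to 183 to 196 CPM and 41.0 to 299 CPM, and choroid plexus markers to 1.74 to 11.4 CPM and 4.95 to 9.61 CPM. The groups overlapped in each of these sums.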
